A study of Mus musculus with 9 samples.

Results

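The pseudogenes described here were the 357 genes that GENCODE vM21 classes as processed pseudogenes, that lie outside the mitochondrial chromosome, and whose mean FPKM (fragments scaled to the length of the gene and the size of the library) over 9 mouse livers was at least 2. They were selected on these measured values from 9938 processed pseudogenes among the 55335 genes in the deposited table, of which 3192 had a value above 0 in at least 1 mouse and 516 a mean of at least 1. For scale, 3624 nuclear protein-coding genes and 4284 genes of any type had a mean of at least 2. The level of a pseudogene is therefore a description, and the selection itself supports nothing. Just inside the threshold were Gm19016 (mean FPKM 2.01) and Gm5963 (2.003), and just outside it Gm10689 (1.99) and Gm6548 (1.98).

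Processed pseudogenes are copies of messenger RNAs that were reverse transcribed and inserted back into the genome. They have usually lost the introns and the promoter of the gene they came from. Most are taken to be silent, but some lie within introns of active genes or beside other promoters and are transcribed. Genes with short, abundant messenger RNAs, above all those of the cytosolic ribosome, have left the most copies in mammalian genomes. A copy that is nearly identical to its source shares most short reads with it, so the level assigned to such a copy in RNA sequencing depends on how reads that match several places are divided.

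The livers came from male B6D2F2 offspring aged 20 weeks, which the study's methods describe as chow-fed and which had been fasted for 4 h, with 3 mice in each group. NC-chow mice were conceived naturally and carried by their own mothers. IVF-chow mice came from eggs fertilized in vitro and transferred fresh at the 2-cell stage, and FET-chow mice from 2-cell embryos that were frozen slowly, stored for 7 days and thawed before transfer, and both kinds of embryo were carried by ICR recipients. B6D2F2 mice derive from the C57BL/6 and DBA/2 strains, and each mouse carries its own mixture of their alleles. Mice are named here by the numbers in their labels, which are 1, 5 and 6 for NC-chow and 2, 3 and 4 for IVF-chow and for FET-chow. They do not state whether the mice of a group had separate mothers, so p-values measure the spread between these mice only.

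The libraries were uneven. A single fragment adds a fixed step to the FPKM of a gene, and the number of mapped fragments estimated from such steps lay between 2010000 and 2930000 in the FET-chow mice, 3900000 and 8430000 in the IVF-chow mice, and 6610000 and 13360000 in the NC-chow mice. At the median length of these pseudogenes, 1 fragment was worth 0.749 to 1.09 FPKM in FET-chow mice and 0.165 to 0.333 FPKM in NC-chow mice. Ribosomal RNA entries took 3.49% to 61.9% of the summed FPKM, with the highest share in IVF-chow mouse 2, and nuclear protein-coding genes took 4.36% to 29.3%. Hepatocyte markers summed to between 3832 and 34454 FPKM, and Kupffer cell, endothelial, stellate, bile duct and leukocyte markers each to at most 38.4 FPKM, while erythroid markers summed to between 60.4 and 553 FPKM. In whole liver, fewer cells of a type and less RNA per cell cannot be told apart. The labels also hold an unexplained number beginning with S, which was between 67 and 76 for 7 mice and higher for NC-chow mice 5 and 6.

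Each pseudogene was paired with the coding gene whose transcript it matched best by BLAST, called here its closest coding gene. A match was found for 352 of 357, to 163 coding genes, at a median identity of 98.9% (range 81.0% to 100%). Of 105 pseudogenes whose symbol names an existing coding gene, such as Rpl38-ps2, 104 matched that gene. The copies are short, with a median of 455 bases (78 to 2191), and 353 have a single exon. The whole aligned stretch lay within the coding sequence for 319 of 352, so the annotation covers little but the coding part of the former messenger RNA. Of 244 that spanned the coding sequence to within 3 bases at each end, 196 aligned without a gap, and in 174 of those no stop codon interrupted the frame. Another pseudogene of the set was at least 98% identical for 167 of 357.

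The sequences below show how little separates the copies from their sources. They were read from the GENCODE vM21 transcripts (GRCm38), positions are counted from 1 at the first base of the coding sequence, and capitals mark bases at which a pseudogene and the coding gene differ. In Rpl21, which encodes a protein of the large ribosomal subunit, positions 325 to 444 hold every difference from 3 of the most abundant pseudogenes of the set, T336C and T432C, which all 3 share. The copies are at chr2:24986308-24986427 (+), chr9:88391161-88391280 (+) and chr15:68310143-68310262 (+), and Rpl21 itself spans chr5:146832890-146837032 (+).
Rpl21: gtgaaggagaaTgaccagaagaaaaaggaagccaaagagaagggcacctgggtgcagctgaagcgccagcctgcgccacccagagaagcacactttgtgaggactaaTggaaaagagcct
Gm13370: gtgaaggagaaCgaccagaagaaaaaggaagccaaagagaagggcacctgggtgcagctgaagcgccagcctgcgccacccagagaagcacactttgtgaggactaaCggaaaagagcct
Gm10163: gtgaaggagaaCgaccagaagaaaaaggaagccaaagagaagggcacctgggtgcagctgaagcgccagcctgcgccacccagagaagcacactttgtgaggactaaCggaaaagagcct
Gm10240: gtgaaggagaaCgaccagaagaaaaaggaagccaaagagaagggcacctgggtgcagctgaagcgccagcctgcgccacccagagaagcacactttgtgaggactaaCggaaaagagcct

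For Rpl29, also of the large subunit, positions 216 to 305 are shown with its 4 pseudogenes in the set. Gm14036 differs from the coding sequence by G231A, C300T and T423C, and Gm8210 and Gm13841 each by C72A, C300T and T423C. Gm5561 carries 8 differences, of which C300T and T423C are common to all 4 copies. The stretches are at chr2:134804161-134804250 (+), chr1:43189371-43189460 (+), chr5:115801855-115801944 (-) and chr1:179520553-179520642 (-), and Rpl29 spans chr9:106429454-106431568 (+).
Rpl29: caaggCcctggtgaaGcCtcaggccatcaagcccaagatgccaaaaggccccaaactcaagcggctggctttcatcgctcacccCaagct
Gm14036: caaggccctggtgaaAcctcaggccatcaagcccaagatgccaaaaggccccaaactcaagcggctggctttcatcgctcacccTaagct
Gm8210: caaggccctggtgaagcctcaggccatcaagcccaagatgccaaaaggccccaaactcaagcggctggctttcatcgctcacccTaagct
Gm13841: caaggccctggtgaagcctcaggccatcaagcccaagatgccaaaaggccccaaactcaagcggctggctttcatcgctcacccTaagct
Gm5561: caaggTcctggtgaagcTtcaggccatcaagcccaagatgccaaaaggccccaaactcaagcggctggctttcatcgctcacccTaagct

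Rpl38 is shown because 2 of the 4 most abundant pseudogenes are copies of it. Over positions 26 to 85 Rpl38-ps2, at chr6:140747088-140747147 (-), equals the coding sequence, as it does over its full length, and Gm8129, at chr6:52346858-52346917 (-), carries its single difference, G50A.
Rpl38: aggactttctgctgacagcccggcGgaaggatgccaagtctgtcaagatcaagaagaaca
Rpl38-ps2: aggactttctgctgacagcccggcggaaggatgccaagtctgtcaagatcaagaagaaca
Gm8129: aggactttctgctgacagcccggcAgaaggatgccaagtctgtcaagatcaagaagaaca

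The last sets are the pseudogenes that passed the group test described further on. Gm7329, at chr1:65095235-65095294 (+) in this stretch, matches the end of the coding sequence of Me1, the cytosolic malic enzyme that makes NADPH, with 2 differences, G1523A and G1530C. Gm14861 (chrX:103486970-103487059 (+)) is a diverged copy of Rps19, a protein of the small ribosomal subunit, and the stretch shown, positions 39 to 128, the first 90 positions aligned without a gap, holds 7 differences. Gm6058 (chr1:157384240-157384329 (-)) is a partial copy of Gabarapl2, which takes part in autophagosome formation, and positions 1 to 90 hold 6.
Me1: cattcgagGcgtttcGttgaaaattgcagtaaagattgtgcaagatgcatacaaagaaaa
Gm7329: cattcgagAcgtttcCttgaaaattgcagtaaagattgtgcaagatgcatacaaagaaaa
Rps19: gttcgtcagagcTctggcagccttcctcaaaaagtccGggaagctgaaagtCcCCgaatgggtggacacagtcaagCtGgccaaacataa
Gm14861: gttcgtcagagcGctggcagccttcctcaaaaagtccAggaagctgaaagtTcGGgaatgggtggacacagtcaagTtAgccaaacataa
Gabarapl2: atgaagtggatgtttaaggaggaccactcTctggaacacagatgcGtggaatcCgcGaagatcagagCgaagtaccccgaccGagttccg
Gm6058: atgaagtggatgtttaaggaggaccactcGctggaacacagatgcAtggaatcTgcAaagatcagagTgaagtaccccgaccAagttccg

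Copies of genes for cytosolic ribosomal proteins made up most of the set. They numbered 241 of 357, came from 74 coding genes and held 74.6% of the summed mean FPKM. Copies of genes for mitochondrial oxidative phosphorylation followed with 24 members and 7.75%, and copies of translation factors with 9 members and 2.71%. Chaperones and isomerases had 5 members, chromatin proteins 5, glycolysis 4 (all copies of Gapdh), ubiquitin and the proteasome 4, and iron storage 2 (both copies of the ferritin gene Ftl1). The remaining 58 matched other genes, and 5 had no match. Classes were assigned by the symbol of the coding gene, so copies of the chaperone gene Dnaja1 and the isomerase gene Pin4 fell among the 58. The coding genes with the most copies were Rpl21 with 14, Rps12 with 11, Rpl17 with 10, and Rps2 and Rpl35a with 9 each. By position, 233 lay outside annotated genes, 66 in an intron on the opposite strand, 51 in an intron on the same strand, and 7 over an exon. Strand-specific counting is not stated in the sources used here, so reads of a host gene's intron and of a pseudogene within it cannot be told apart.

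Levels ranged widely within the set. The median of the 357 means was 5.72 FPKM, 119 were at 10 or more, and 3 were above 100. Many of the lower ones rested on few mice: 65 would fall under a mean of 2 without their highest mouse, 14 had over 50% of their sum in a single mouse, and 105 were listed at 0 in at least 1 mouse, 40 of them in 2 or more. A mean of at least 2 in every group was found for 239, and 6, 7 and 13 reached it only in the NC-chow, IVF-chow or FET-chow group. A member that reached the threshold through a single group had to differ between groups, so the counts of members below describe the set and are not evidence about it.

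Gm12338, a copy of Cox7c with no difference in sequence, had the highest mean. Its levels were 64.7, 198 and 250 FPKM in the NC-chow mice, 27.5, 125 and 199 FPKM in the IVF-chow mice, and 71.1, 114 and 11.7 FPKM in the FET-chow mice. Cox7c, a subunit of cytochrome c oxidase, gave 97.6, 152 and 194 FPKM, then 29.2, 110 and 232 FPKM, then 110, 123 and 30.4 FPKM in the same mice. Copy and gene were both lowest in IVF-chow mouse 2 and FET-chow mouse 4, and the groups overlapped.

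Gm7536, a copy of Rpl27a that lies in an intron of Naaladl2 on the opposite strand, was next. It reached 97.2, 93.3 and 103 FPKM in the NC-chow mice, 17.2, 93.8 and 248 FPKM in the IVF-chow mice, and 158, 122 and 28.5 FPKM in the FET-chow mice. Rpl27a itself, identical over the copy's length, lay between 5.06 and 68.5 FPKM and below its copy in every mouse. The same held for Rpl31-ps8, a full-length identical copy of Rpl31 with 20.2 to 141 FPKM against 9.45 to 80.5 FPKM for the gene. In all, 37 of 352 pseudogenes had a higher mean than their closest coding gene, 14 of 40 at 100% identity and 4 of 96 under 98%, and 7 were higher in every mouse. FPKM is scaled to length, and the annotation gives Rpl27a 2774 exon bases against 444 for Gm7536. For Rpl31 it gives 1662 against 378 for Rpl31-ps8. The part of length in these and other comparisons of copy and gene was not tested.

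Rpl38-ps2 and Gm8129 stand for copies of a gene that remained above them. Rpl38-ps2 lay between 28.8 and 209 FPKM and Gm8129 between 17.0 and 206 FPKM, while Rpl38 lay between 52.0 and 463 FPKM. The 2 copies nevertheless differed in their pattern. In NC-chow mice 1, 5 and 6 Rpl38-ps2 gave 62.3, 113 and 96.2 FPKM and Gm8129 gave 85.9, 32.2 and 33.4 FPKM. In the FET-chow mice they gave 119, 209 and 42.2 FPKM and 206, 168 and 80.1 FPKM. The copy with no difference was the higher of the pair in NC-chow mice 5 and 6, in every IVF-chow mouse and in FET-chow mouse 3. The copy with G50A was the higher in the other NC-chow and FET-chow mice.

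Gstp-ps, in an intron of Traf5 on the same strand, is the most abundant copy outside the ribosomal and mitochondrial classes. Its closest coding gene is Gstp2, a glutathione S-transferase of the detoxification system, at 99.2% identity with 5 differences. Its levels were 24.1, 75.7 and 43.4 FPKM in the NC-chow mice, 25.8, 71.8 and 138 FPKM in the IVF-chow mice, and 80.8, 169 and 125 FPKM in the FET-chow mice. All 3 FET-chow values lay above all 3 NC-chow values, but the difference did not pass the test across genes (log2 fold change 1.45 ± 1.06 SE, limma adjusted p = 0.618). Gstp2 gave 133, 147 and 197 FPKM in the FET-chow mice and 30.2, 111 and 38.4 FPKM in the NC-chow mice.

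The remaining members named for abundance were chosen by mean level, some of them only among those whose symbol names a coding gene. Their groups overlapped widely. Rpsa-ps10 (10.8 to 234 FPKM) copies the gene of a small-subunit protein, Tpt1-ps3 (13.1 to 121 FPKM) the gene of a translationally controlled tumour protein, and Rpl19-ps11 (12.2 to 168 FPKM), Rpl28-ps1 (14.2 to 76.1 FPKM), Rpl17-ps3 (10.2 to 128 FPKM) and Rpl17-ps5 (7.58 to 112 FPKM) copy genes of the large subunit. Rps16-ps2 (8.46 to 95.4 FPKM) and Rps6-ps4 (7.94 to 66.2 FPKM) copy genes of the small subunit and do not differ from them in sequence. The lowest value of each of these 8 was in IVF-chow mouse 2, the library with the largest share of ribosomal RNA entries.

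The set's share of all summed FPKM did not separate the groups. It was 0.392%, 0.405% and 0.459% in the NC-chow mice, 0.0989%, 0.540% and 1.096% in the IVF-chow mice, and 0.570%, 0.659% and 0.224% in the FET-chow mice. Because ribosomal RNA and mitochondrial entries take a variable part of this total, the share was also taken of the summed FPKM of nuclear coding genes and pseudogenes of the set. It was then 3.74%, 2.55% and 2.47% in the NC-chow mice (2.92% ± 0.711, SD, n = 3), 2.22%, 4.39% and 3.604% in the IVF-chow mice (3.403% ± 1.099, SD, n = 3), and 5.76%, 4.60% and 4.84% in the FET-chow mice (5.07% ± 0.611, SD, n = 3). Each FET-chow mouse lay above every other mouse on this scale, and no p is given because the members were selected on the same values. The FET-chow libraries were also the smallest, and the part of depth in this difference was not tested.

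**Figure D1:**
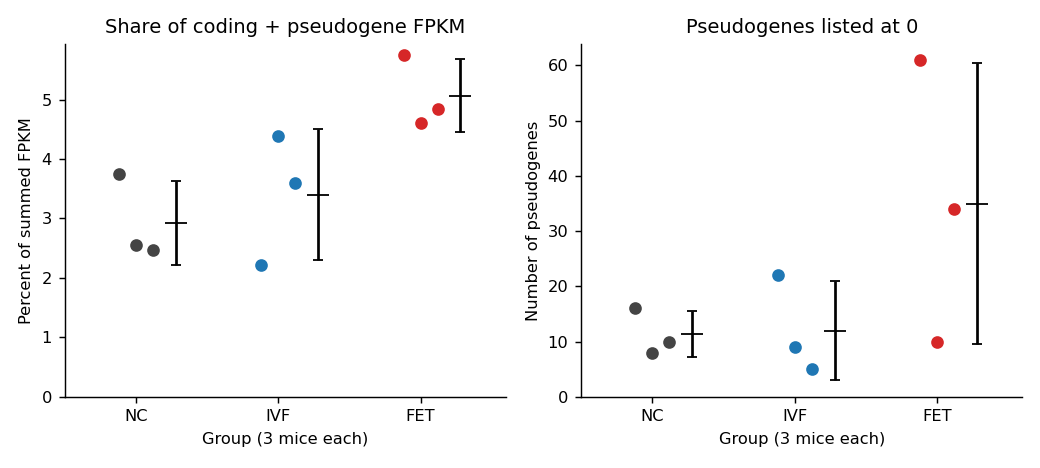
Left, summed FPKM of the pseudogenes as a percent of the summed FPKM of nuclear protein-coding genes plus these pseudogenes; right, number of the pseudogenes listed at 0. Each point is a mouse, and the black marks give the group mean with 1 SD (n = 3): the FET-chow (FET) points lie between 4.60% and 5.76%, above all NC-chow (NC) and IVF-chow (IVF) points, and FET-chow mouse 2 has 61 pseudogenes at 0.

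Within the set, the part held by copies of oxidative phosphorylation genes separated the groups, while that of the ribosomal copies overlapped between them. Copies of ribosomal protein genes held 75.1%, 67.9% and 65.8% of the set's FPKM in the NC-chow mice, 66.6%, 75.4% and 75.3% in the IVF-chow mice, and 79.2%, 79.0% and 74.96% in the FET-chow mice. Copies of oxidative phosphorylation genes held 9.09%, 11.8% and 12.2%, then 7.85%, 7.06% and 8.49%, then 5.37%, 4.89% and 3.72%. The mitochondrial share was thus highest in the 3 NC-chow mice and lowest in the 3 FET-chow mice, with no overlap between any groups. This order is a description of shares that must sum to 100%, so a larger ribosomal part lowers the other parts. Gm12338, the copy of Cox7c, gave 198 and 250 of the set's 3618 and 3970 FPKM in NC-chow mice 5 and 6. In IVF-chow mouse 4 its level was below that in NC-chow mouse 6, while the set summed to 8611 FPKM. The order without Gm12338 was not tested, so the separation of NC-chow from IVF-chow mice may rest on this member.

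Pseudogenes that resemble their closest coding gene more closely were assigned levels nearer to it. The median log2 difference between pseudogene and gene, on FPKM + 1, was -0.30 ± 0.31 in the NC-chow, -0.21 ± 0.17 in the IVF-chow and -0.55 ± 0.04 in the FET-chow group (SD over mice, n = 3) for the 40 copies at 100% identity. For the 126 copies from 99% to under 100% the medians were -1.56 ± 0.20, -1.28 ± 0.09 and -1.42 ± 0.19, and for the 90 copies from 98% to 99% they were -3.04 ± 0.72, -2.42 ± 0.31 and -2.80 ± 0.43. The 73 copies from 95% to 98% had the lowest medians, -3.80 ± 0.55, -3.24 ± 0.35 and -3.56 ± 0.34, and the 23 under 95% had -3.39 ± 0.62, -2.73 ± 0.41 and -2.70 ± 0.96. Members had to reach a mean of 2 to be included, which sets a lower limit on these differences in every class of identity. At 100% identity the FET-chow mice (-0.58, -0.50 and -0.57) lay below the IVF-chow mice (-0.41, -0.14 and -0.09) but not below NC-chow mouse 1 (-0.61).

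**Figure D2:**
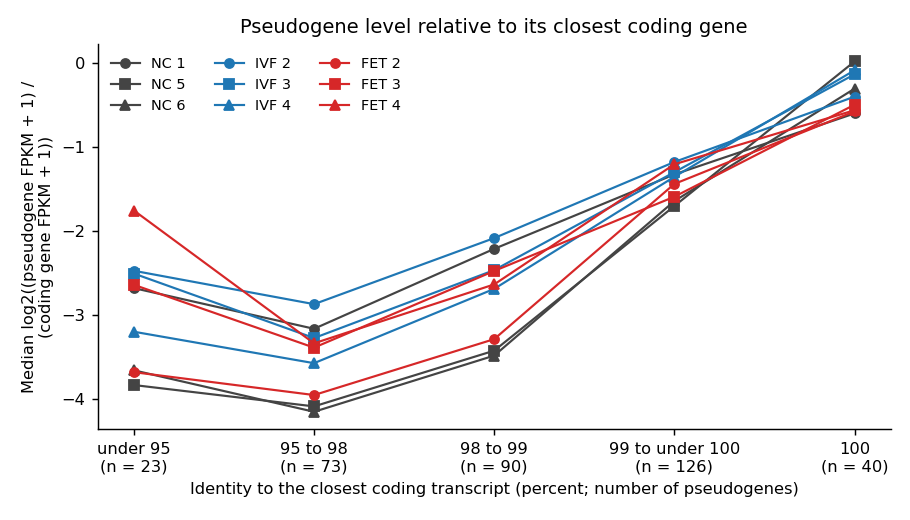
Median over pseudogenes of the log2 ratio of pseudogene to closest coding gene (FPKM + 1), by percent identity, with a line for each mouse and the number of pseudogenes under each class. All lines rise from 95 to 98% identity towards 100% identity, and NC-chow mice 5 and 6 lie lowest in the classes from 95% to 99%.

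NC-chow mice 5 and 6 stood apart from NC-chow mouse 1 in this comparison. In the class from 98% to 99% their medians were -3.43 and -3.49, against -2.22 in NC-chow mouse 1. FET-chow mouse 2, the smallest library, was nearly as low at -3.29, and with a pseudocount of 0.1 it lay between them (-3.86, against -3.83 and -3.91). NC-chow mice 5 and 6 are the mice whose S numbers differ, and they had the deepest libraries. Ribosomal RNA entries took at least 18.1% of summed FPKM in the other 7 mice, but 3.49% and 5.03% in these. Mitochondrial entries took at most 41.5% in the others, but 55.3% and 51.9% in NC-chow mice 5 and 6. Counted over the set, 40 of 357 pseudogenes (11.2%) had values in both of these mice more than 4 times below the median of the other 7 mice, against 20 of 3624 nuclear coding genes (0.552%) and 0 of 157 closest coding genes with a mean of at least 2. The reverse, both values over 4 times that median, held for 11 pseudogenes (3.08%) and 226 coding genes (6.24%). After rescaling each mouse to its nuclear coding genes the first count was 64 pseudogenes (17.9%) against 33 coding genes (0.911%), and the reverse count was 5 pseudogenes (1.40%) against 60 coding genes (1.66%). These counts were chosen after the values had been seen and carry no test. Copies of the same gene were counted separately. The 40 include several copies of Rps12, some with nearly equal levels in every mouse (Rps12-ps11 and Rps12-ps13), and copies of Rpl29. By identity the 40 made up 4 of 23 copies under 95%, 15 of 73 from 95% to 98%, 12 of 90 from 98% to 99%, 6 of 126 from 99% to under 100%, and 2 of 40 at 100%, and 1 had no match.

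The Rpl29 copies shown above were singled out after their values had been seen. Gm14036, Gm8210 and Gm13841 are among the pseudogenes low in NC-chow mice 5 and 6, and Gm5561 is not. Gm14036 was at 20.0, 0.199 and 0.384 FPKM in NC-chow mice 1, 5 and 6, at 8.21, 0.712 and 32.5 FPKM in the IVF-chow mice, and at 20.3, 27.5 and 5.81 FPKM in the FET-chow mice. Gm8210 was at 25.1, 1.41 and 1.32 FPKM, then 9.81, 2.73 and 35.6 FPKM, then 39.5, 19.3 and 11.3 FPKM, and Gm13841 at 31.1, 1.94 and 2.07 FPKM, then 13.4, 6.98 and 55.1 FPKM, then 27.4, 44.6 and 9.58 FPKM. Rpl29 itself went from 3.77 FPKM in NC-chow mouse 1 to 49.1 and 18.9 FPKM in mice 5 and 6, and from 0.401 FPKM in IVF-chow mouse 2 to 96.1 FPKM in IVF-chow mouse 3. The mice in which the 3 copies were low, NC-chow mice 5 and 6 and IVF-chow mouse 3, were thus mice in which the gene was well above its copies. The copies held 95.3%, 10.5% and 27.5% of the summed FPKM of Rpl29 and its 4 copies in the NC-chow mice, 98.7%, 14.9% and 68.2% in the IVF-chow mice, and 94.6%, 72.6% and 65.2% in the FET-chow mice. Gm5561, with 8 differences, stayed between 0 and 6.45 FPKM.

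**Figure D3:**
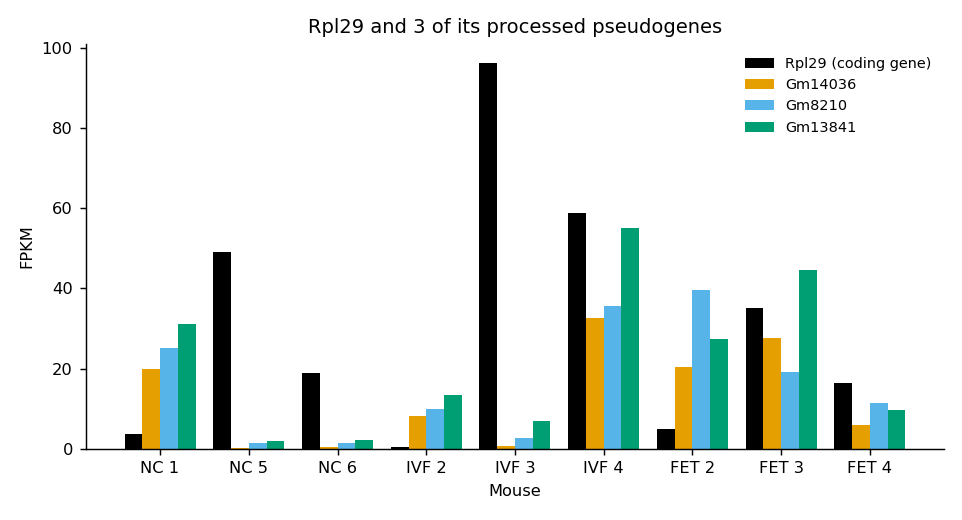
FPKM of Rpl29 and of 3 processed pseudogenes that each differ from its coding sequence at 3 positions, as bars for each mouse. The pseudogenes are under 8 FPKM in NC-chow mice 5 and 6 and in IVF-chow mouse 3, where the Rpl29 bar is far above them, and exceed Rpl29 in NC-chow mouse 1, IVF-chow mouse 2 and FET-chow mouse 2.

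Among the other families examined, the division was steadier in some than in others. For Rpl17 the 10 copies held 39.3% to 56.1% of the family's summed FPKM in all 9 mice, although the sum itself ran from 46.7 to 698 FPKM. For Gapdh, the glycolytic enzyme gene, the 4 copies held 31.0% to 45.5%, and for Rpl35a the 9 copies held 76.8% to 85.7%. The 14 Rpl21 copies held 83.3% to 96.0% in 8 mice and 50.6% in IVF-chow mouse 2. For Rps12 the 11 copies held 42.5% to 74.2% and for Rps2 the 9 copies 26.8% to 65.1%. The coding genes are longer than their copies (3400 exon bases for Rpl21, 483 for Gm13370). These shares of FPKM, and those of Rpl29, are therefore not shares of fragments. Some pairs of copies had nearly equal levels. Gm13370 and Gm10163, on chromosomes 2 and 9, had levels within 2% of each other in every mouse, 1.78 FPKM for both in IVF-chow mouse 2 and 189 FPKM for both in IVF-chow mouse 4. The same held for Rps12-ps11 with Rps12-ps13 and for Rps12-ps18 with Rps12-ps6. Other copies that share differences did not: Gm10240, which also shares T336C and T432C, was at 38.0 FPKM in NC-chow mouse 5 where Gm13370 was at 43.5 FPKM, and Gm8210 and Gm13841, which differ from Rpl29 at the same 3 positions, were at 19.3 and 44.6 FPKM in FET-chow mouse 3. How reads were divided between such copies was not tested, and levels of single members of these families are uncertain.

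Does the way of conception change these pseudogenes in the adult liver? In FET-chow against NC-chow mice, 3 of 357 pseudogenes passed an adjusted p of 0.05, Gm6058 and Gm14861 higher and Gm7329 lower, where 0.237% of all 6755 genes tested did. Of the 163 closest coding genes 158 were tested, and limma called 0 of them. At an unadjusted p under 0.05, 0 of the 158 were higher and 2 lower. Both are smaller shares than the 1.88% and 10.1% found among all genes tested. The median log2 fold change of the pseudogenes was 0.09, against -0.46 over all genes tested. Most single members could therefore not be separated from the spread between mice.

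Gm7329 was at 2.41, 8.96 and 11.0 FPKM in the NC-chow mice, at 0.329, 1.73 and 0.614 FPKM in the IVF-chow mice, and was listed at 0 in all 3 FET-chow mice. All NC-chow values lay above all others. The log2 fold change was -2.89 ± 0.60 SE (limma, adjusted p = 0.0118), which is no bound on the ratio, since with FET-chow values of 0 its size is set by the pseudocount (-5.98 with a pseudocount of 0.1). The copy has 210 bases, and in FET-chow mice 2, 3 and 4 a single fragment would have given 2.37, 1.69 and 1.63 FPKM and 3 fragments, the limit that a count of 0 allows, 7.11, 5.08 and 4.88 FPKM. The value of NC-chow mouse 1 lies under each of these limits. Me1, 99.05% identical over the copy, was at 3.13, 13.3 and 13.0 FPKM in the NC-chow and at 1.70, 3.91 and 3.73 FPKM in the FET-chow mice. Gm7329 reached the mean of 2 only through the NC-chow group, so its p rests on values that selected it and is no independent evidence. The call was lost with no filter on low values (adjusted p = 0.434), in the fit of only these groups (0.128), and without NC-chow mouse 5 (0.0933), NC-chow mouse 6 (0.148), FET-chow mouse 3 (0.135) or FET-chow mouse 4 (0.052). In these fits the log2 fold change stayed between -2.89 and -2.54. Without both NC-chow mice 5 and 6, which leaves the NC-chow group a single mouse, it was -1.77.

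Gm14861 was listed at 0 in NC-chow mice 1 and 5, at 0.286 FPKM in NC-chow mouse 6, at 0 in all 3 IVF-chow mice, and at 8.28, 8.03 and 3.05 FPKM in the FET-chow mice. The FET-chow values correspond to an estimated 7.57, 10.3 and 4.07 fragments. It passed the test in FET-chow against NC-chow (log2 fold change 2.68 ± 0.58 SE, limma, adjusted p = 0.0186) and in FET-chow against IVF-chow mice (2.80, limma, adjusted p = 0.0232). With the compared groups at or near 0, the size of these fold changes is set by the pseudocount, and with 0.1 they were 5.26 and 5.90. It reached the mean of 2, and the mean of 1 needed for testing, only through the FET-chow group, so these p-values rest on values that selected it and are no independent evidence. With no filter on low values the adjusted p was 0.434 and 0.586, and in fits of only the groups compared 0.128 and 0.595. Rps19, 87.7% identical, lay between 4.57 and 58.9 FPKM with overlapping groups. The first call was lost without NC-chow mouse 5 (limma adjusted p = 0.133) or FET-chow mouse 3 (0.129) and with a pseudocount of 0.1 (0.151). Its log2 fold changes there were 2.62, 2.5 and 5.26. The second was lost without any single IVF-chow mouse, whose values were all 0 (limma adjusted p = 0.0616, 0.115 and 0.205 without mice 2, 3 and 4). The log2 fold change stayed at 2.80 in these fits. This call was also lost without FET-chow mouse 3 (0.0704) and with a pseudocount of 0.1 (0.203), at log2 fold changes of 2.62 and 5.90.

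Gm6058, in an intron of Rasal2 on the same strand, was at 4.60, 0.153 and 0.140 FPKM in the NC-chow mice, 2.21, 27.4 and 10.3 FPKM in the IVF-chow mice, and 53.9, 21.5 and 20.7 FPKM in the FET-chow mice. All FET-chow values exceeded all NC-chow values, and the IVF-chow values overlapped both groups. The log2 fold change in FET-chow against NC-chow mice was 3.95 ± 0.86 SE (limma, adjusted p = 0.0208). NC-chow mice 5 and 6 held under 1 estimated fragment each, and it is among the 40 pseudogenes low in these mice. The call was lost with no filter on low values (adjusted p = 0.493), in the fit of only these groups (0.128), without mouse 5 (0.26) or 6 (0.257), without FET-chow mouse 3 (0.135), after median-ratio scaling (0.0546) and after rescaling to nuclear coding genes (0.0697), although in the last 3 of these the log2 fold change was no smaller, at 4.15, 4.11 and 4.26. Without both NC-chow mice 5 and 6 the log2 fold change fell to 2.42. Gabarapl2 lay between 0.979 and 9.62 FPKM with overlapping groups.

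**Figure D4:**
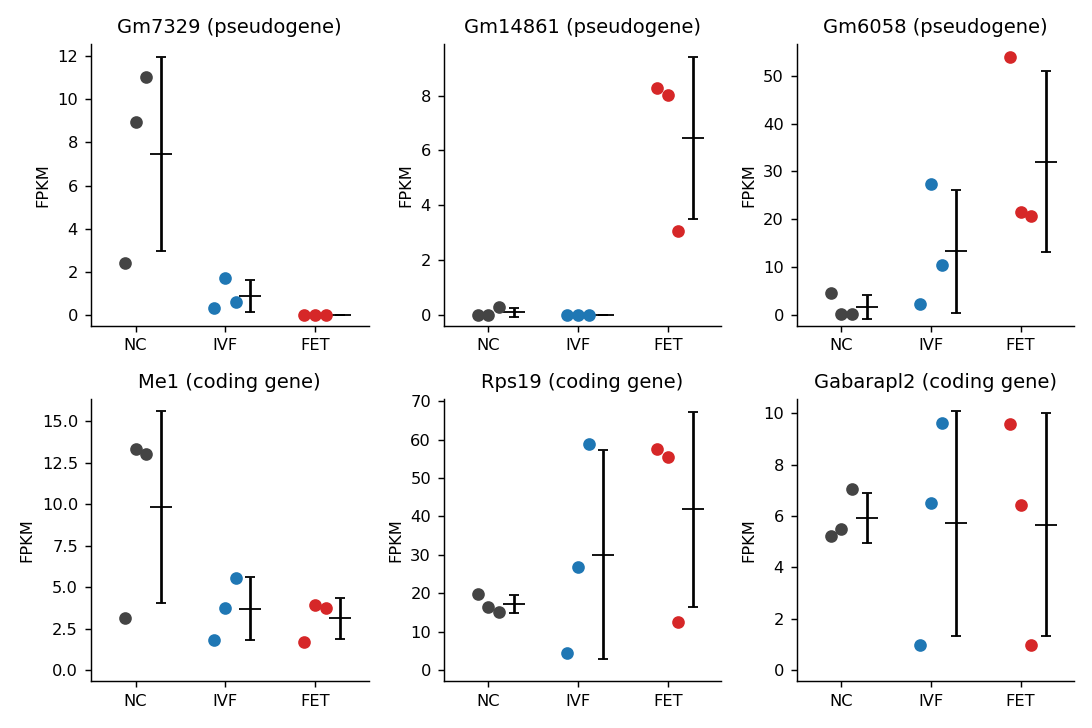
FPKM of the 3 pseudogenes that passed the test in FET-chow (FET) against NC-chow (NC) mice (top) and of their closest coding genes (bottom). Each point is a mouse, and black marks give the mean with 1 SD (n = 3): Gm7329 is at 0 and Gm14861 between 3.05 and 8.28 FPKM in the FET-chow mice, and the groups of Rps19 and Gabarapl2 overlap.

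The other members with the largest differences in FET-chow against NC-chow mice did not pass the test. Tma7-ps, a copy of the gene of a translation machinery associated protein, was at 0, 0.722 and 0.941 FPKM in the NC-chow mice, 3.24, 1.87 and 16.4 FPKM in the IVF-chow mice, and 51.3, 22.2 and 0 FPKM in the FET-chow mice, so that the FET-chow mice spanned the whole range (log2 fold change 2.84 ± 0.87 SE, limma adjusted p = 0.141). Without FET-chow mouse 4 its adjusted p was 0.00866. Gm10180, a copy of Rpl41 of only 78 bases, lay between 0.307 and 0.938 FPKM in the NC-chow and between 2.76 and 15.9 FPKM in the FET-chow mice (2.56 ± 0.72 SE, adjusted p = 0.0908). At 78 bases 1 fragment adds more than the 0.749 to 1.09 FPKM it adds in FET-chow mice at the median length. The values of Gm10180 therefore rest on few fragments. Gm45660, a copy of part of Rps19, was at 7.65, 2.56 and 0 FPKM in the NC-chow and at 22.6, 27.5 and 7.73 FPKM in the FET-chow mice (2.52 ± 0.78 SE, adjusted p = 0.14), and its log2 fold change was 1.06 without NC-chow mice 5 and 6. For Gm10180 and Gm45660 the 2 groups did not overlap.

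Among the members that were lower, 2 copy genes of the respiratory chain and ATP synthase. Gm15920, a copy of Ndufa12 of complex I, was at 10.9, 28.9 and 6.43 FPKM in the NC-chow, 4.58, 16.3 and 29.4 FPKM in the IVF-chow and 1.25, 2.61 and 0 FPKM in the FET-chow mice (log2 fold change -2.78 ± 0.81 SE, limma adjusted p = 0.111). Ndufa12 itself was at 16.3, 27.7 and 6.35 FPKM in the FET-chow mice, against 4.16 to 27.5 FPKM in the other 6 mice, so that these ranges overlapped. Gm10250, a copy of the ATP synthase gene Atp5h, was at 6.93, 17.9 and 15.0 FPKM in the NC-chow and at 0, 16.3 and 0.718 FPKM in the FET-chow mice (-2.11 ± 0.88 SE, adjusted p = 0.334). Gm11843, a copy of the ubiquitin-conjugating Ube2v2, was at 0.0574, 12.1 and 7.59 FPKM in NC-chow mice 1, 5 and 6 and listed at 0 in the FET-chow mice (-2.30 ± 0.66 SE, adjusted p = 0.101). Its adjusted p was 0.00363 without NC-chow mouse 1, but without NC-chow mice 5 and 6 the log2 fold change was -0.08. Gm14513, a copy of part of Rps3, was at 19.0, 11.8 and 17.3 FPKM in the NC-chow mice and at 0, 40.9 and 0 FPKM in the FET-chow mice (-2.27 ± 1.02 SE, adjusted p = 0.362).

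At an unadjusted p under 0.05, 24 pseudogenes (6.72%) were higher and 12 (3.36%) lower in FET-chow against NC-chow mice, where 1.88% of all genes tested were higher and 10.1% lower. The groups did not overlap for 26 pseudogenes that were higher (7.28%; 1.98% of all genes) and 19 that were lower (5.32%; 17.1% of all genes). The split depended on single libraries and on scale. Without FET-chow mouse 3 there were 12 higher and 19 lower (8.68%, against 14.2% of all genes) with a median of -0.19, against -0.66 over all genes. Without FET-chow mouse 4 there were 33 and 13 (12.9%, against 9.25%) with a median of 0.49, against -0.22. With a pseudocount of 0.1 there were 15 and 18 (9.24%, against 12.6%) with a median of -0.01, against -0.77. The median of all genes thus moved in the same direction as that of the pseudogenes when either FET-chow mouse was left out. After rescaling each mouse to nuclear protein-coding genes, which moved the median of all genes from -0.46 to -0.06, the pseudogenes' median was 0.56, with 78 higher and 6 lower at this p (23.5% in either direction, against 16.7% of all genes). After median-ratio scaling it was 0.46 with 70 higher and 10 lower (22.4%, against 17.2% of all genes), where the median of all genes was -0.13. Without NC-chow mice 5 and 6, which leaves the NC-chow group a single mouse, the median was -0.09 against -0.15 for all genes.

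By class, 1 of 241 copies of ribosomal protein genes, Gm14861, passed the adjusted test, and 16 were higher and 2 lower at the unadjusted p, at which 1.88% of all genes were higher and 10.1% lower. Their median log2 fold change was 0.29, 150 of 241 were positive, and it stayed positive on both rescaled versions (0.63 and 0.73) but was -0.04 without NC-chow mice 5 and 6. The 74 ribosomal protein genes had a median of 0.12, and none passed either threshold. Of the 24 copies of oxidative phosphorylation genes none passed the adjusted limma test, 0 were higher and 3 lower at the unadjusted p, a share near the 10.1% of all genes, and the median was -0.79, against -0.46 over all genes, with -0.40 and -0.28 on the rescaled versions. Their 21 coding genes had a median of -0.75 with 1 lower at the unadjusted p. All 4 Gapdh copies had negative values, with a median of -1.34 (-0.85 and -0.75 on the rescaled versions), against -1.38 for Gapdh, and none passed, but without NC-chow mice 5 and 6 the median was -0.08 and 2 of 4 were positive. Copies of chromatin protein genes had a median of 0.42 with 2 of 5 higher at the unadjusted p, and stayed positive on the rescaled versions (0.88 and 0.91). Copies of translation factor genes had a median of -0.24 with 0 of 9 passing it, and this direction turned on both rescaled versions (0.12 and 0.17).

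In IVF-chow against NC-chow mice no pseudogene passed the adjusted test in limma, where 0.0592% of all genes did. At an unadjusted p under 0.05, 10 were higher (1.21% of all genes) and 7 lower (2.86% of all genes). After median-ratio scaling 15 were higher and 4 lower (5.32%, against 5.76% of all genes), and after rescaling to nuclear coding genes 9 and 4 (3.64%, against 5.43%). Single libraries moved these counts more. Without IVF-chow mouse 2 there were 54 higher and 5 lower (16.5%, against 5.80% of all genes). Without IVF-chow mouse 4 there were 2 higher and 12 lower (3.92%, against 7.05%). The median of the pseudogenes was 0.13, against -0.25 over all genes, and it ran from -0.38 without IVF-chow mouse 4 to 0.85 without IVF-chow mouse 2, where the median of all genes was -0.63 and 0.22. IVF-chow mouse 4 held the highest value of 159 of the 357 pseudogenes and IVF-chow mouse 2 of 0. The signs of both medians thus rested on single libraries.

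In FET-chow against IVF-chow mice 1 pseudogene, Gm14861, passed the adjusted test, where 0.0888% of all genes did. At the unadjusted p, 9 were higher (1.07% of all genes) and 10 lower (2.95% of all genes). This split depended on scale and on single libraries. After median-ratio scaling 26 were higher and 10 lower with a median of 0.15 (10.1% in either direction, against 9.65% of all genes). After rescaling to nuclear coding genes 44 were higher and 7 lower with a median of 0.34 (14.3% in either direction, against 9.43% of all genes). There were 4 higher and 43 lower without IVF-chow mouse 2 (13.2%, against 12.5%), and 7 and 24 without FET-chow mouse 3 (8.68%, against 6.19%). There were 15 higher and 2 lower without IVF-chow mouse 4 (4.76%, against 2.35%), and 23 and 10 without FET-chow mouse 4 (9.24%, against 4.34%). On the deposited scale the median of the pseudogenes was 0.00063 and that of all genes -0.20, and the former ran from -0.78 without IVF-chow mouse 2 to 0.57 without IVF-chow mouse 4, where the latter was -0.67 and 0.16. This comparison and FET-chow against NC-chow share the FET-chow mice, so their values are not independent.

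**Figure D5:**
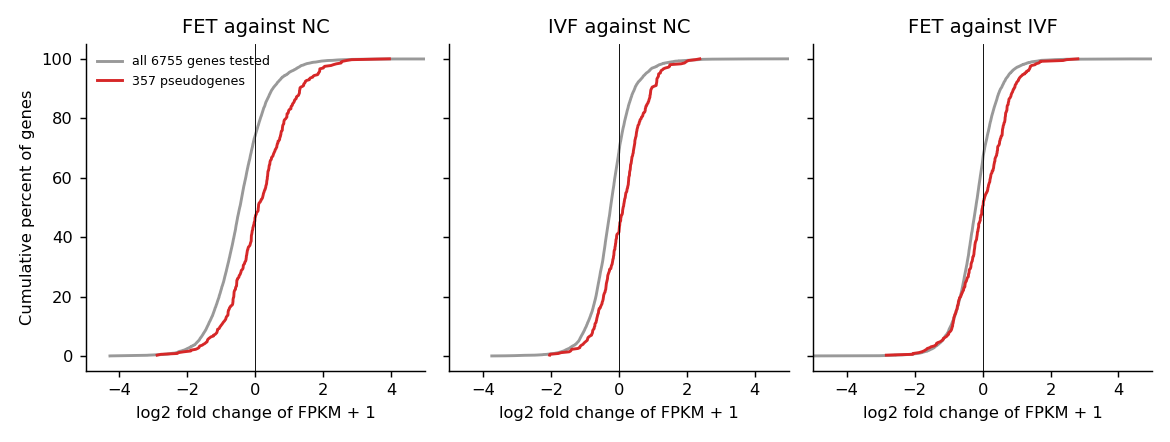
Cumulative percent of genes by log2 fold change of FPKM + 1 in the 3 comparisons, for the 357 pseudogenes (red) and all 6755 genes tested (grey). In FET-chow (FET) against NC-chow (NC) mice the red line lies to the right of the grey line, with medians of 0.09 and -0.46, and in FET-chow against IVF-chow (IVF) mice the lines meet among the negative values.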

How the data were processed

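Liver RNA of 9 mice was analysed, with 3 mice a group, and each mouse was placed in its group by its label. The authors deposited FPKM values for 55335 genes by Ensembl identifier. The submitters' processing notes name FastQC 0.11.5, STAR 2.5.3a, StringTie 1.3.1c and DESeq2 1.16.1. The genome build, the annotation, the strandedness and the treatment of reads that map to several places are not given in the sources used here. Such reads decide the level of a near-identical copy, and their effect was not tested. Of the genes, 55154 matched the GENCODE vM21 annotation (GRCm38), which gave classes, symbols, positions and transcripts, so positions are those of that annotation.

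The members, the lists and the tests were chosen with earlier results of these data known. Closest coding genes were found with blastn 2.17.0 (same strand, e-value of at most 1e-10, predicted genes passed over where a named gene matched), and 5 members had tied matches. A match can include a former untranslated part, and it does not show descent. Since the table holds no counts, limma 3.58.1 in R 4.3.3 was run on log2(FPKM + 1), keeping genes whose FPKM averaged 1 or more (6755), with 1 model for the 3 groups, a variance trend, two-sided tests and Benjamini-Hochberg adjustment over all of them. In simulated data with the FET-chow against NC-chow design and 6755 genes, 54.9% of genes changed by a log2 value of 3 were recovered. The share was 98.2% for a change of 6, and none was called where nothing was changed. The simulated noise was normal, independent between genes and equal in spread in every mouse. It held no differences in depth or scale between libraries, so these rates need not hold for the uneven libraries here. Depth was estimated from fragment steps of up to 8 fragments with a tolerance of 2%, on which 31.0% to 61.5% of low values lay. It covers counting error only.

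Named members were those past the threshold, the 10 with the highest mean, the 5 largest changes each way in FET-chow against NC-chow, the 10 most abundant whose symbol names a coding gene, and the 2 on each side of the threshold. The Rpl29 family, the other families named and the counts on NC-chow mice 5 and 6 were chosen after their values were seen. Alternatives were a pseudocount of 0.1, no filter, median-ratio scaling, rescaling to nuclear protein-coding genes, fits of only the groups compared, a block for the mouse number, leaving out each mouse, and, added after the data were seen, leaving out NC-chow mice 5 and 6.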

Additional observations from a re-analysis of the deposited data

How the results depend on the processing

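With 3 mice a group and FET-chow libraries of at most 2930000 estimated fragments, low pseudogenes rest on few fragments. The number of pseudogenes passing in FET-chow against NC-chow mice went from 3 to 0 with no filter on low values, where 0 of 27411 genes passed. It also went to 0 when only these groups were fitted, where 0 of 6755 genes passed. Leaving out each mouse gave between 0 and 9, namely 4, 0 and 1 for NC-chow mice 1, 5 and 6 (of 83, 15 and 14 among all genes) and 9, 0 and 4 for FET-chow mice 2, 3 and 4 (of 57, 1 and 15, against 16 with every mouse). In IVF-chow against NC-chow the range was 0 to 1, with 1 without NC-chow mouse 1, where 24 of all genes passed, against 4 with every mouse. In FET-chow against IVF-chow the number went from 1 to 0 with a pseudocount of 0.1, with no filter, and when only these groups were fitted. Among all genes 5, 0 and 0 passed in these settings, against 6 in the main fit. Leaving out each mouse gave 0 to 1, of 0 to 10 among all genes. Whether the mouse numbers pair the samples could not be decided with 3 mice a group. The correlations of deviations from the group mean were -0.131, 0.0215 and -0.255 for same-numbered IVF-chow and FET-chow mice. IVF-chow mouse 3 correlated at 0.0216 with FET-chow mouse 2, and no mouse correlated best with the mouse of its own number. With the number as a replicate block 0 pseudogenes passed (Gm14861, limma adjusted p = 0.519), and 2 of all genes. As a share of nuclear coding genes plus pseudogenes, the set held 2.92% in NC-chow, 3.4% in IVF-chow and 5.07% in FET-chow mice, against 0.419%, 0.578% and 0.485% of the total, and members with a mean of at least 5 held 0.375% in the NC-chow group. With a pseudocount of 0.1 the median log2 difference between pseudogene and closest coding gene was -2.27 in the IVF-chow and -2.41 in the FET-chow group, against -1.96 and -2.08. A median in place of a mean of at least 2 kept 275 pseudogenes. The 10 members named for their FET-chow against NC-chow difference kept their sign in all alternatives, but without NC-chow replicates 5 and 6 Gm11843 went from -2.3 to -0.08 and Gm45660 from 2.52 to 1.06 on the log2 scale. The causes of these changes were not tested.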

Other observations

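Of other pseudogene classes, 20 genes annotated as transcribed processed pseudogenes and 20 annotated as unprocessed pseudogenes had a mean FPKM of at least 2. The 357 processed pseudogenes were spread over all chromosomes of the nuclear annotation except Y, with 34 on chromosome 2, 29 on chromosome 1, 28 on chromosome X and 7 on chromosome 19. Among the chaperones and isomerases the most abundant member was Gm15459, a copy of the heat shock gene Hspa8. It was at 67.5, 19.4 and 58.0 FPKM in the NC-chow mice, 31.2, 38.3 and 67.1 FPKM in the IVF-chow mice, and 16.5, 55.1 and 21.9 FPKM in the FET-chow mice, and its groups overlapped.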
